A study of Drosophila melanogaster with 12 samples.

Results

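Genes with an RNA-seq count of 0 in every library of Drosophila S2 cells were examined for their Brahma (BRM) ChIP-seq signal. Silent genes were chosen by 2 measured values, a count of 0 in all 8 RNA-seq libraries and a ChIP-seq Input signal that reached 0.5 in each replicate. The IP signal was not used. Of the 740 genes with 0 counts in 8 libraries, 604 were in the ChIP-seq table and 569 of these passed the limit on Input. Genes whose symbols start with Cpr (cuticle proteins) or Cyp (cytochromes P450) were left out, 14 in all, which left 555 silent genes. In all, 13557 genes reached an Input of 0.5 in each replicate. Of the silent genes, 527 were annotated as protein-coding, 12 as non-coding RNA genes and 2 as pseudogenes, and 14 had an identifier without annotation. The silent genes were compared with 6103 active genes, which had at least 10 CPM (counts scaled to the library total) in both control libraries.

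S2 is an established cell line of Drosophila melanogaster with features of blood cells (hemocytes). The ChIP-seq experiment used an antibody against the cells' own BRM and was done in 2 biological replicates. Both an immunoprecipitate (IP) and the chromatin before precipitation (Input) were sequenced. The RNA-seq libraries came in pairs of biological replicates from 4 conditions. These were cells expressing recBRM-V5 or the ATPase mutant recBRM-K804R-V5, both treated with dsRNA against BRM and with copper sulfate in the last 24 h, cells with an empty plasmid and dsRNA against BRM, and control cells with an empty plasmid and dsRNA against GFP, all collected after 48 h of dsRNA treatment. The recombinant proteins were driven by a copper-inducible metallothionein promoter in stably transfected lines. The RNA-seq libraries were poly(A) libraries. Silent therefore means a count of 0 for polyadenylated RNA under all of these treatments, and RNA without a poly(A) tail could be missed. The RNA-seq libraries held between 6600562 and 10287294 counts, and a count of 0 in every library allows up to 3 counts in the summed total, or 0.047 CPM, counting error only.

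BRM is the ATPase of the Drosophila SWI/SNF chromatin remodeling complexes, which slide and evict nucleosomes at promoters and enhancers and have also been found along gene bodies. BRM belongs to the Trithorax group, genes known for keeping developmental regulators active against Polycomb repression. Most genes that a blood cell line does not transcribe serve other tissues, such as sense organs, gut, cuticle and the reproductive tract, or act only in the early embryo.

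Marker genes were read in the control libraries as a check of the cell type. Of 10 hemocyte markers, 9 had at least 10 CPM in both control libraries, and the tenth, NimC1, had 2.85 and 1.84 CPM. All 5 fat body markers, 3 of 4 muscle markers and 3 of 5 neuronal markers were under 1 CPM, whereas the neuronal genes elav and brp had 86.5 and 71.0 CPM, and 14.2 and 16.3 CPM. Of 5 germ line and follicle markers 2 were under 1 CPM, and osk was above 10 CPM in both libraries. None of 3 testis markers was under 1 CPM, with twe above 10 CPM in both libraries and bol at 6.24 and 6.13 CPM. The muscle, germ line and testis lists had also named wupA, vas, nos, Mst84Da and Mst84Db, for which no value was read. In bulk libraries, a few cells with much of an RNA and many cells with little of it cannot be told apart. The choice of silent genes used the counts, the limit on Input and the Cpr and Cyp symbols, and no marker gene.

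The promoters of the silent genes differed from those of active genes in the motifs they hold. The letters TATAAA, the core of the TATA box that positions transcription initiation, were found in the sense strand with the first base 15 to 45 bases before the annotated start in 17.6% of 540 silent genes, in 3.08% of 5808 active genes and in 8.73% of all 13044 genes with a position. This window was chosen after the values were seen. Over the whole promoter, from 250 bases before to 50 bases after the start and on both strands, TATAAA was found in 47.8% of the silent genes, 46.2% of the active genes and 45.4% of all genes. TATCGATA, the core of the DNA replication-related element (DRE) that is common in housekeeping promoters, was found in 1.11% of the silent genes, 17.4% of the active genes and 9.41% of all genes. Of the 6 silent genes with this element, vnd encodes a neural homeodomain protein and the others are CG9030, CG17648, CG10862, CG32643 and CG43229. GAGAG, a core of GAGA factor sites, was found in 29.6% of the silent genes, 26.5% of the active genes and 29.6% of all genes, and the E-box CAGCTG in 13.3%, 21.7% and 17.9%. The silent genes thus differed from the active genes mainly in the position of TATAAA and in the rarity of the DRE. The shares were not taken for genes outside both groups, so that these traits may not be particular to silent genes. The search was a match of letters and does not show that a factor was present.

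Promoters of 4 silent genes are shown because they belong to the tissue-specific families described below, with that of the active gene mor, a SWI/SNF subunit gene with a DRE, for contrast. These 5 genes were chosen after the values were seen. Each sequence is the 100 bases before the annotated start in the Release 6 genome, read 5′ to 3′ on the strand of the gene, and capitals mark TATAAA or TATCGATA in the sense strand. Osi7 (chr3R:6248894-6248993, plus strand) encodes an Osiris protein of cuticle-forming epithelia, LysB (chr3L:1207271-1207370, plus strand) a digestive lysozyme, TwdlD (chr3R:26639925-26640024, plus strand) a Tweedle cuticle protein, Or94a (chr3R:22987181-22987280, plus strand) an odorant receptor, and mor lies on the minus strand (chr3R:15972914-15973013).
Osi7: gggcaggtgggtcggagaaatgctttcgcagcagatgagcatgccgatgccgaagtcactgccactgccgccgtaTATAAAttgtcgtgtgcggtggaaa
LysB: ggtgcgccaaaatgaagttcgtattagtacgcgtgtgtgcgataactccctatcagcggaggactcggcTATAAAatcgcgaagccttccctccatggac
TwdlD: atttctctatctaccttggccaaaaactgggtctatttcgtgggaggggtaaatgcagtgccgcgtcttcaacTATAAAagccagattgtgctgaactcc
Or94a: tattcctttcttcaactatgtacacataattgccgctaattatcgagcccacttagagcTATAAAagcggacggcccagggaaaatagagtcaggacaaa
mor: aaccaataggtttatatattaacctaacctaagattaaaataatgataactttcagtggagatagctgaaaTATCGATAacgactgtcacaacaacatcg
TATAAA begins 25 bases before the start in Osi7, 31 in LysB, 27 in TwdlD and 41 in Or94a, and the DRE of mor begins 29 bases before its start. GC content also set these promoters apart, with a median of 40.0% in the silent genes, 36.3% in the active genes and 38.0% in all genes. Within the silent genes the ChIP-seq ratio was compared between promoters with and without each motif, without a test. The median log2 IP/Input, described next, was −0.14 and 0.07 in replicates 1 and 2 in silent genes with TATAAA anywhere in the promoter, against −0.15 and 0.12 in those without it. It was −0.15 and 0.16 with GAGAG, against −0.15 and 0.07 without it, and −0.15 and 0.12 with CAGCTG, against −0.15 and 0.10 without it. In the 6 genes with a DRE it was −0.18 and −0.03, against −0.15 and 0.10 in the others. The medians of replicate 1 were thus close to each other for each motif, and those of replicate 2 differed more.

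BRM occupancy was measured as the coverage signal that the authors averaged over the gene body and 200 bp on each side. In the silent genes, replicates 1 and 2 had a median signal of 1.58 and 1.97 in the IP samples, against 1.77 and 1.87 in the Input samples. In the active genes the median was 2.81 and 1.98 in the IP samples, against 2.88 and 2.38 in the Input samples. The silent genes thus had a lower median Input than the active genes in both replicates, whereas their median IP was lower in replicate 1 and almost the same in replicate 2. The enrichment was expressed as log2 IP/Input of the same replicate, with 0.1 added to each signal, so that 0 means equal signal. Its mean over the silent genes was −0.13 in replicate 1 and 0.09 in replicate 2, against 0.0067 and −0.24 over the active genes. The SD over genes was 0.16 and 0.44 in the silent genes and 0.23 and 0.30 in the active genes. The silent genes therefore stood below the active genes in one replicate and above them in the other, and the distributions of both groups overlapped in each replicate.

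**Figure D1:**
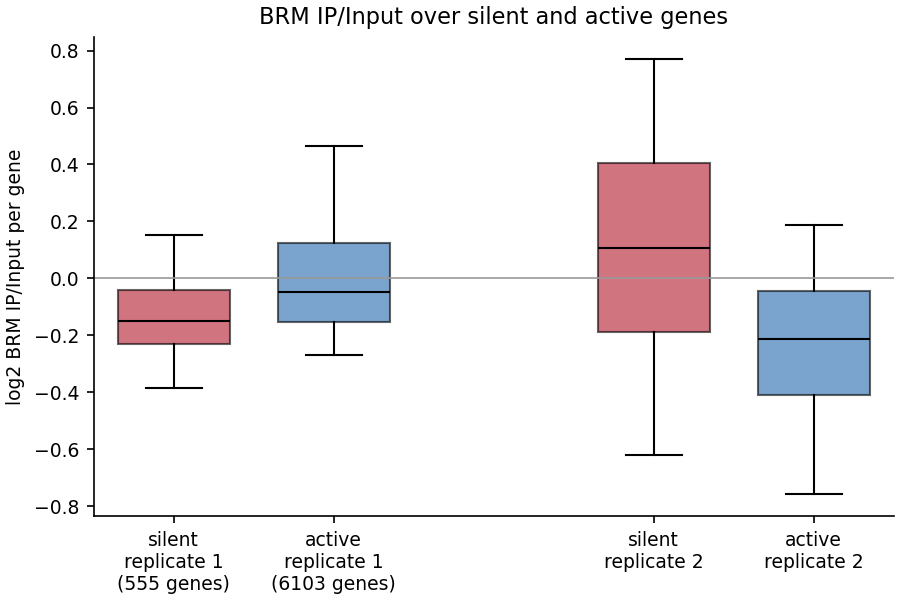
Box plot of log2 IP/Input per gene (vertical axis) in each ChIP-seq replicate, silent genes left of active genes. Lines are medians over genes, boxes the middle quartiles and whiskers the 5th and 95th percentiles, and the silent genes have a median of −0.15 against −0.05 in replicate 1, and of 0.11 against −0.21 in replicate 2.

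The difference of silent minus active genes was −0.14 in replicate 1 and 0.33 in replicate 2, with a mean of 0.10 ± 0.33 (SD, n = 2 replicates). Because the silent genes were shorter, with a median length of 1241 bases against 2987 bases, and had a GC content of 45.3% against 46.2%, the difference was also taken from a least-squares fit with gene length and GC content as covariates. This adjusted difference was −0.11 in replicate 1 and 0.46 in replicate 2, with a mean of 0.18 ± 0.41 (SD, n = 2). Control for length and GC content thus did not bring the replicates together. In an exact two-sided permutation test by sign flips over the replicates, p was 1 with and without adjustment, and the smallest p that 2 replicates allow is 0.5. The mean difference between silent and active genes was smaller than the spread between replicates, and its direction rested on which replicate was read: without replicate 2 the adjusted difference was −0.11, and without replicate 1 it was 0.46.

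The IP and Input samples were then compared apart. In log2 signal, the silent genes were lower than the active genes by a difference of −0.74 in the IP of replicate 1, and higher by 0.05 in the IP of replicate 2. In the Input samples the difference was −0.60 in replicate 1 and −0.28 in replicate 2. Before any ratio was formed, the IP samples therefore disagreed in direction about the silent genes, whereas the Input samples had the same direction and differed in size. The log2 ratio of the Input of replicate 1 to that of replicate 2 had a mean of −0.07 in the silent genes and 0.25 in the active genes, a difference of −0.32, or −0.35 after adjustment for length and GC content. For the IP samples the same ratio had a mean of −0.29 in the silent genes and 0.50 in the active genes, a difference of −0.79, or −0.92 after adjustment. The contrast between silent and active genes in samples without any antibody thus differed between replicates by more than the mean adjusted IP/Input difference of 0.18. With the mean Input of both replicates as denominator for each IP, an alternative added after seeing the data, the adjusted difference was −0.28 in replicate 1 and 0.64 in replicate 2. The replicates were thus farther apart with a common Input than with their own.

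Over the 555 silent genes, the log2 IP/Input of replicate 1 and replicate 2 had a Pearson's r of −0.28 and a Spearman's rho of −0.26, against −0.16 and −0.20 over the active genes. These values are across genes, which share libraries and base composition and are not independent replicates. In log2 signal, the Input samples of both replicates correlated across the silent genes with r = 0.87, against 0.94 over the active genes and 0.90 over all genes. The IP samples correlated with r = 0.52 across the silent genes, against 0.67 over the active genes and 0.49 over all genes. The most frequent pattern among the silent genes was a signal below Input in replicate 1 and above Input in replicate 2. It was found in 300 silent genes (54.1%), against 876 active genes (14.4%) and 32.1% of all genes. The reverse pattern was found in 64 silent genes (11.5%), against 2209 active genes (36.2%) and 24.5% of all genes. Another 31 silent genes (5.59%) were above Input in both replicates, compared with 6.99% of all genes, and 160 (28.8%) were below Input in both, compared with 44.3% of the active genes and 36.4% of all genes. By the size of the ratio, replicate 2 was the higher one in 377 silent genes (67.9%), against 1759 active genes (28.8%) and 47.8% of all genes.

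**Figure D2:**
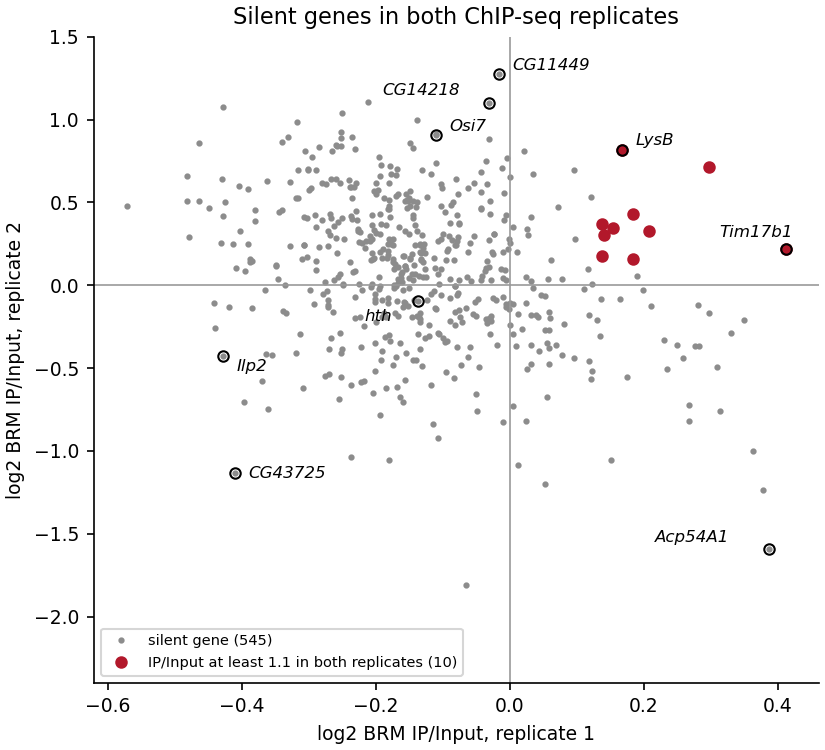
The log2 IP/Input of each silent gene in replicate 1 (horizontal axis) and replicate 2 (vertical axis), each point being 1 gene, with the 10 genes that reached 1.1 in both replicates in red and genes named in the text circled. Of 555 silent genes, 300 lie below Input in replicate 1 and above it in replicate 2, and 31 lie above it in both.

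The methods of the study call a gene bound by BRM at an IP/Input of at least 1.1, and merge the replicates for plots. Here the ratios of the 2 replicates were averaged instead. This called 2117 of the 13557 genes, a number that differs from the paper's count of bound genes. With the mean of both replicates, 144 of the 555 silent genes (25.9%) were bound, against 497 active genes (8.14%) and 15.6% of all genes tested. In replicate 1 alone 35 silent genes (6.31%) reached this limit, against 1490 active genes (24.4%) and 15.9% of all genes. In replicate 2 alone 269 silent genes (48.5%) reached it, against 467 active genes (7.65%) and 25.8% of all genes. The higher share of bound genes among the silent genes thus came from replicate 2. In both replicates, 10 silent genes (1.80%) reached the limit, against 54 active genes (0.885%) and 1.37% of all genes. In the other direction, Input exceeded IP by 1.1 or more in both replicates in 70 silent genes (12.6%), against 943 active genes (15.5%) and 12.5% of all genes, so that this count among the silent genes stood at the share of all genes. A limma fit of IP against Input over all 13557 genes gave no gene with an adjusted p under 0.05 in either direction (0% of all genes). At an unadjusted p under 0.05 it gave 2 genes that were higher (0.0148% of all genes) and 4 that were lower (0.0295%) in the IP, and 0 of these were silent. With the replicate number as a block, which pairs each IP with its Input as the ratios do, there was again no gene that passed after adjustment. Before adjustment (p under 0.05) the limma fit with the block gave 45 genes that were higher (0.332% of all genes), 4 of them silent (0.721%), and 301 that were lower (2.22% of all genes), 12 of them silent (2.16%). The share of silent genes that were lower was close to that of all genes.

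Of the 10 silent genes that were bound in both replicates, Tim17b1, which encodes a subunit of a mitochondrial protein translocase, had the highest ratio in replicate 1. Its signal was 4.34 and 3.03 in the IP samples against 3.23 and 2.58 in the Input samples, and its log2 IP/Input was 0.41 and 0.22. The non-coding RNA gene lncRNA:CR40172 had 2.47 and 3.07 in the IP samples against 1.99 and 1.83 in the Input samples, with log2 ratios of 0.30 and 0.72. Both genes were above Input in each replicate, by different amounts. LysB had 1.19 and 2.61 in the IP samples against 1.05 and 1.43 in the Input samples, with log2 ratios of 0.17 and 0.82. It lies in a cluster of lysozyme genes that resemble each other closely, so that both its RNA-seq count and its coverage are uncertain. The other 7 were CG15233, CG5139, CG34253, CG12910, CG15036, CG3699 and CG32053, whose log2 ratios ran between 0.14 and 0.21 in replicate 1 and between 0.16 and 0.43 in replicate 2. These 10 genes were listed because they are few, and no test was made on them.

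GC content separated the silent genes from each other, and in opposite directions in the replicates. Over the 540 silent genes with a length and GC content, log2 IP/Input had r = −0.30 with GC content in replicate 1 and r = 0.64 in replicate 2, against −0.47 and 0.43 in 5808 active genes, again as a description across genes. In the fit to silent and active genes, 10 percentage points of GC content changed log2 IP/Input by −0.19 in replicate 1 and by 0.42 in replicate 2, and a unit of log10 gene length by 0.08 and 0.30. When the genes were divided into quartiles by the GC content of all genes, the silent genes had a median of −0.09 in replicate 1 and −0.19 in replicate 2 in the lowest quartile (159 genes), against 0.12 and −0.37 in the active genes. In the highest quartile (133 genes) the median was −0.20 in replicate 1 and 0.51 in replicate 2, against −0.15 and −0.07 in the active genes. The silent minus active difference in medians was −0.21, −0.16, −0.06 and −0.05 in replicate 1 from the lowest to the highest quartile, and 0.18, 0.32, 0.40 and 0.57 in replicate 2. Within every quartile, the silent genes were thus below the active genes in replicate 1 and above them in replicate 2. The share of silent genes with a mean IP/Input of at least 1.1 was 5.03%, 14.3%, 29.6% and 58.6% from the lowest to the highest quartile, against 10.1%, 9.60%, 5.65% and 7.09% of the active genes and 7.85%, 12.1%, 14.7% and 27.8% of all genes. The share thus rose with GC content over all genes too.

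**Figure D3:**
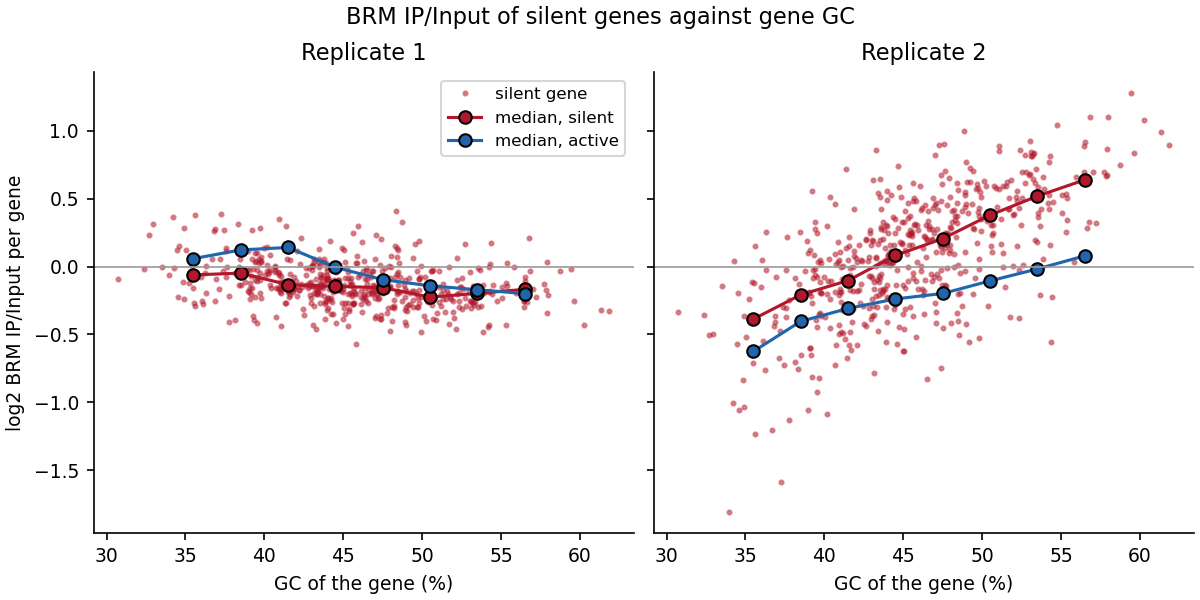
The log2 IP/Input of each silent gene (small points) against the GC content of the gene in percent, with the medians of silent and active genes in GC bins of equal width (large points joined by lines), in replicate 1 (left) and replicate 2 (right). The silent genes go slightly down with GC content in replicate 1 (r = −0.30) and steeply up in replicate 2 (r = 0.64), and in the bins richest in GC the medians of both groups nearly coincide in replicate 1.

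The silent genes at both ends of a ranking by both replicates were then read. The ranking kept genes on the same side of the median in each replicate. It therefore cannot show the opposite directions of GC content in the replicates. Ranked by the mean of both replicates, among protein-coding silent genes on the same side of the median of all genes in each replicate, CG11449, CG14218, LysB, ND-B14.5AL and CG2964 were the highest, and CG43725, CG43829, CheA7a, CG14143 and CG15024 the lowest. CG11449 had a signal of 1.78 and 6.66 in the IP samples against 1.81 and 2.69 in the Input samples, with log2 ratios of −0.02 and 1.28. CG14218 had 1.47 and 2.98 in the IP samples, which were 0.978 and 2.23 times the signal of the Input samples. Both genes were at the level of Input in replicate 1 and far above it in replicate 2. ND-B14.5AL, named for its likeness to a subunit of mitochondrial complex I, had 1.00 and 3.54 in the IP samples against 1.03 and 1.87 in the Input samples, and CG2964 had 2.58 and 4.25 against 2.54 and 2.38. Among the lowest, CG43725 had 1.46 and 0.79 in the IP samples against 1.97 and 1.85 in the Input samples, with log2 ratios of −0.41 and −1.13. CheA7a, a member of the CheA family of secreted proteins of chemosensory organs, had 0.722 and 0.352 in the IP samples against 0.831 and 0.841 in the Input samples, with log2 ratios of −0.18 and −1.06. These genes were below Input in both replicates, and further below it in replicate 2. CG15024 had 1.21 and 1.08 in the IP samples against 1.62 and 1.82 in the Input samples, and the log2 ratios of CG43829 and CG14143 were −0.24 and −1.04, and −0.36 and −0.75.

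Coding sequences of 3 genes from each end of this ranking were chosen after the values were seen, passing over CG43829 and CG14143 among the lowest. The SD over silent genes was 0.16 in replicate 1 and 0.44 in replicate 2, so that replicate 2 weighed more in the ranking. Over the silent genes, the ratio went down with GC content in replicate 1 (r = −0.30) and up in replicate 2 (r = 0.64). The base composition of these genes therefore shows no relation that both replicates share. Each sequence is the first 120 bases of the longest coding exon in the Release 6 genome, read 5′ to 3′ on the strand of the gene, and capitals mark G and C. CG11449 (chr3L:22454373-22454492, plus strand), CG14218 (chrX:19581540-19581659, minus strand) and LysB (chr3L:1207394-1207513, plus strand) were high, whereas CG43725 (chr2L:11075548-11075667, plus strand), CheA7a (chrX:7378488-7378607, plus strand) and CG15024 (chr3L:4463246-4463365, minus strand) were low.
CG11449: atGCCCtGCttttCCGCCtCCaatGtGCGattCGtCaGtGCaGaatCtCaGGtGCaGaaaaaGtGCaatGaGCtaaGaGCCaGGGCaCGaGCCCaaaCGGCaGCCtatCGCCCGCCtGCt
CG14218: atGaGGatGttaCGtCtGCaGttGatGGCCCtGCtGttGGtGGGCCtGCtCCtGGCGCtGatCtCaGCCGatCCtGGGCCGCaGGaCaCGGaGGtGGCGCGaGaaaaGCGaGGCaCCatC
LysB: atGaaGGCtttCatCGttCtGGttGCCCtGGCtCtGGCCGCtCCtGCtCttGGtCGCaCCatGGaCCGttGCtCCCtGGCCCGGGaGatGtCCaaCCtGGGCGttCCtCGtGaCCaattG
CG43725: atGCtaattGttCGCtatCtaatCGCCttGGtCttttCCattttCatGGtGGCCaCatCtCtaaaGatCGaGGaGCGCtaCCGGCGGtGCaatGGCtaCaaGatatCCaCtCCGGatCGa
CheA7a: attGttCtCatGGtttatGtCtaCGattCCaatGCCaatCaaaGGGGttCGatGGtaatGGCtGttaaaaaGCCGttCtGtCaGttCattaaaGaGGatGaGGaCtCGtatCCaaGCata
CG15024: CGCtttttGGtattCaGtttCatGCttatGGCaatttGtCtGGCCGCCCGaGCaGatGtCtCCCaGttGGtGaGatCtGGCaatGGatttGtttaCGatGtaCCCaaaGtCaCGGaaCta
The stretches of the high genes hold 68, 75 and 73 G or C in the order shown, and those of the low genes 58, 49 and 56. Over the whole gene, GC content was 59.4% in CG11449, 56.8% in CG14218 and 52.7% in LysB, against 37.8% in CG43725, 38.9% in CheA7a and 38.1% in CG15024. An exception among the lowest genes was CG14143, with 47.4%.

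Grouping by gene length gave the same opposition between replicates. In genes under 1.5 kb, the silent genes (318) had a median log2 IP/Input of −0.14 in replicate 1 and 0.01 in replicate 2, against −0.09 and −0.37 in 1106 active genes. In genes of 1.5 to 15 kb (195) the values were −0.16 and 0.25, against −0.06 and −0.19 in 4090 active genes. In genes over 15 kb (28) they were −0.13 and 0.07, against 0.15 and −0.16 in 612 active genes. The median of the silent genes thus changed little with length in replicate 1, and the 1.5 to 15 kb class was the highest in replicate 2. The longest silent genes included known regulators. The homeodomain gene hth, 132008 bases long, had 1.46 and 1.70 in the IP samples against 1.62 and 1.83 in the Input samples, with log2 ratios of −0.14 and −0.10. The nuclear receptor gene svp had 2.00 and 2.15 in the IP samples against 2.05 and 2.02 in the Input samples. CG34106 had 1.26 and 0.605 in the IP samples, and its log2 ratio was 0.01 in replicate 1 and −1.09 in replicate 2. Averaged over their bodies, hth and svp were close to Input, DIP-kappa, an immunoglobulin domain gene, had log2 ratios of −0.17 and −0.0012, and DCX-EMAP, a gene of mechanosensory neurons, had −0.13 and 0.14.

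The families of the silent genes followed from symbols, and each list holds only a few members with 0 counts. Of genes in both tables, 5 of 8 Osiris genes, 8 of 59 developmental transcription factor genes, 7 of 20 digestive protease and lysozyme genes, 5 of 27 cuticle genes of other families than Cpr, 5 of 46 odorant receptor, 4 of 31 gustatory receptor, 6 of 44 ionotropic receptor, 5 of 33 odorant binding protein and 5 of 38 accessory gland and sperm protein genes were silent. None of 17 eggshell and yolk genes and none of 4 glue and pupal genes was among them. For comparison, of all 12137 genes in both tables, 604 had 0 counts and 555 were silent genes by the rule. Of 62 histone genes, 23 had 0 counts, and all 23 had an Input under 0.5.

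The Osiris genes encode membrane proteins of the epithelia that secrete cuticle. They had a median log2 IP/Input of −0.23 in replicate 1 and 0.77 in replicate 2, against medians of −0.15 and 0.11 over all silent genes and −0.09 over all genes in either replicate. Osi7 had 1.40 and 3.74 in the IP samples against 1.52 and 1.95 in the Input samples. Osi14 had 1.32 and 3.30 in the IP samples against 1.64 and 1.89 in the Input samples. All 5 members, Osi4, Osi6, Osi7, Osi8 and Osi14, were below Input in replicate 1, between −0.48 and −0.11, and above it in replicate 2, between 0.29 and 0.90. On the mean ratio, 4 of the 5 were bound, beside 25.9% of the silent genes and 15.6% of all genes, and 0 were bound in both replicates, beside 1.80% and 1.37%. They lie in 1 gene cluster on chromosome arm 3R, so that they are not independent of each other.

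The developmental transcription factors had medians of −0.18 in replicate 1 and 0.32 in replicate 2. The pair-rule gene eve, which patterns the embryonic segments and is a classical Polycomb target, had 2.27 and 6.22 in the IP samples against 3.08 and 2.90 in the Input samples, with log2 ratios of −0.43 and 1.08. The dorsal patterning gene zen had 1.84 and 3.02 in the IP samples against 2.24 and 2.21 in the Input samples, and the bar-class homeobox gene B-H1 had 0.810 and 1.43 against 0.924 and 0.954. These 3 genes were lower than Input in replicate 1 and higher in replicate 2. The Hox gene lab had log2 ratios of −0.19 and 0.17, the zinc finger gene opa −0.22 and 0.22, and vnd −0.18 and 0.41. The proneural gene l(1)sc was near Input in both replicates, with 0.06 and 0.04, and the neural precursor gene ase was below it in both, with −0.15 and −0.19. The last 3 genes lie on the X chromosome and were those with the lowest Input among all silent genes, between 0.53 and 0.55 in replicate 1, just inside the limit of 0.5. Just outside it were CG12519, lncRNA:CR32652 and Spn43Ab, whose Input in replicate 1 was 0.48, 0.40 and 0.38 and whose log2 ratios in replicate 2 were −0.90, −0.05 and 1.05.

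The digestive proteases and lysozymes had medians of −0.13 and 0.42. In epsilonTry, a trypsin, the IP signal was 1.98 and 5.31 against 2.31 and 2.42 in the Input samples. Another trypsin, iotaTry, had 2.51 and 2.42 in the IP samples against 2.90 and 2.84 in the Input samples. Of close relatives, one was thus well above Input in replicate 2 and the other below it in both replicates. LysS had log2 ratios of −0.13 and 0.69 and LysP −0.0061 and 0.42. Jon65Aii, a serine protease gene of the Jonah family, had −0.18 and 0.16, and zetaTry −0.13 and 0.06. The cuticle genes of other families had medians of −0.25 and 0.31, between TwdlD, with −0.25 and 0.93, and Edg84A, with −0.25 and −0.29.

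Among the chemosensory families, the receptor families had medians in replicate 2 below that of all silent genes. Medians in replicates 1 and 2 were −0.13 and −0.05 for odorant receptors, −0.11 and −0.06 for gustatory receptors, −0.11 and 0.0089 for ionotropic receptors and −0.20 and 0.10 for odorant binding proteins. The odorant binding proteins were thus farther below Input in replicate 1 than the receptors. Orco, the co-receptor that odorant receptors share, is silent but was not in the receptor list, and was named after its values were seen. It had 1.34 and 2.71 in the IP samples against 1.53 and 1.87 in the Input samples. Gr21a, part of the carbon dioxide receptor, had 1.91 and 4.83 in the IP samples against 2.28 and 3.18 in the Input samples. Both genes were below Input in replicate 1 and above it in replicate 2. Or83a, with log2 ratios of −0.20 and −0.35, and Obp93a, with −0.22 and −0.58, were below it in both. The ionotropic receptor genes Ir10a, Ir56d, Ir75c, Ir7a, Ir94g and Ir94h lay between −0.35 and 0.08 in replicate 1 and between −0.17 and 0.10 in replicate 2.

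The accessory gland and sperm protein genes, whose products are made in the male reproductive tract, had medians of 0.03 in replicate 1 and −0.44 in replicate 2, the reverse order of all silent genes. Acp54A1 had 2.54 and 0.519 in the IP samples against 1.92 and 1.76 in the Input samples, with log2 ratios of 0.39 and −1.59. Acp76A had 2.46 and 1.61 in the IP samples against 2.29 and 2.22 in the Input samples. Acp26Aa had log2 ratios of −0.11 and −0.92, Sfp38D of 0.03 and −0.18, and Mst33A of −0.03 and 0.19. Of the 5 genes, 3 were above Input in replicate 1 and below it in replicate 2, Acp26Aa was below it in both, and Mst33A had the opposite order. The accessory gland and sperm protein genes were also poor in GC, with a median of 39.5% against 54.3% in the digestive proteases and lysozymes. Of single members of other lists, the insulin-like peptide gene Ilp2 had 1.83 and 1.96 in the IP samples against 2.50 and 2.67 in the Input samples, with log2 ratios of −0.43 in each replicate. Its replicates gave nearly the same value. The photoreceptor protein kinase C gene inaC had −0.22 and 0.27.

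**Figure D4:**
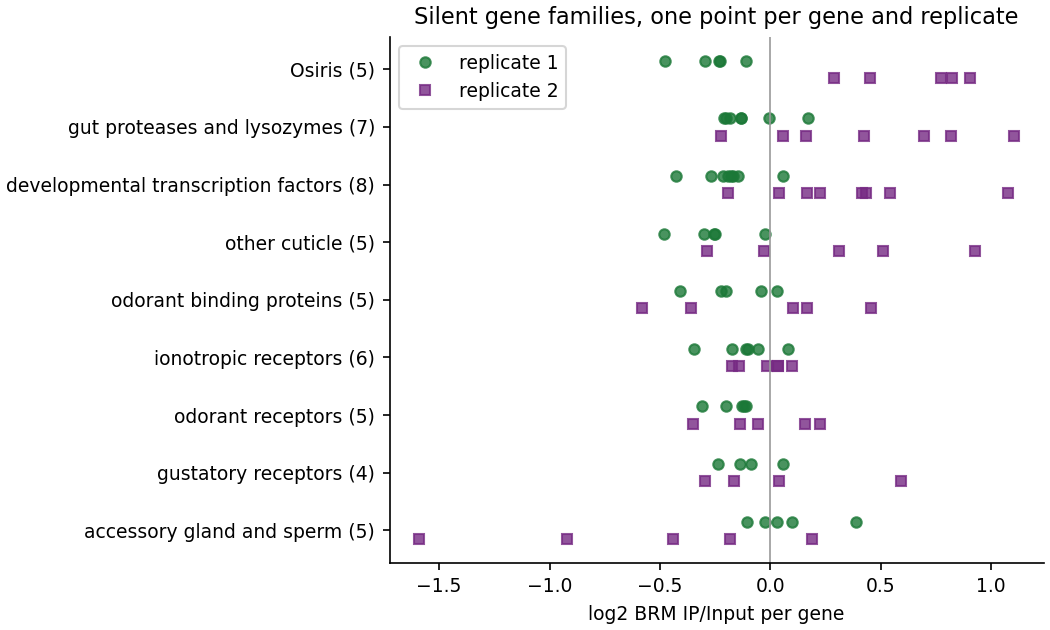
The log2 IP/Input (horizontal axis) of silent genes by family, with the number of genes in brackets, circles for replicate 1 and squares for replicate 2, each being 1 gene. All 5 Osiris genes lie between −0.48 and −0.11 in replicate 1 and between 0.29 and 0.90 in replicate 2.

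The silent genes were not an isolated class in the order of expression. With genes ordered by their CPM in the control cells, the median log2 IP/Input in replicate 1 was −0.15 in the 555 silent genes, −0.13 in 1336 other genes with 0 counts in both control libraries, −0.10 in 2446 genes under 1 CPM, −0.06 in 1354 genes of 1 to 10 CPM, −0.08 in 4086 genes of 10 to 100 CPM and 0.04 in 2154 genes over 100 CPM. In replicate 2 it was 0.11, 0.12, 0.06, −0.08, −0.20 and −0.23 in the same order. The median rose with expression in replicate 1, apart from the class of 10 to 100 CPM, and fell with expression in replicate 2 from the class after the silent genes on. Just outside the rule, 665 genes with a single count in all libraries had medians of −0.14 and 0.13, against −0.15 and 0.11 in the silent genes. Single active genes of known function were read for comparison. Act5C (cytoplasmic actin) had 5.36 and 2.12 in the IP samples against 2.66 and 1.90 in the Input samples, with log2 ratios of 0.98 and 0.15. The ribosomal protein gene RpL32 had log2 ratios of 0.02 and −0.27, and alphaTub84B (alpha-tubulin) 0.21 and 0.11. Of these, Act5C and alphaTub84B were above Input in both replicates, as 5.15% of the active genes were, and RpL32 was below it in replicate 2 like the median of its class.

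**Figure D5:**
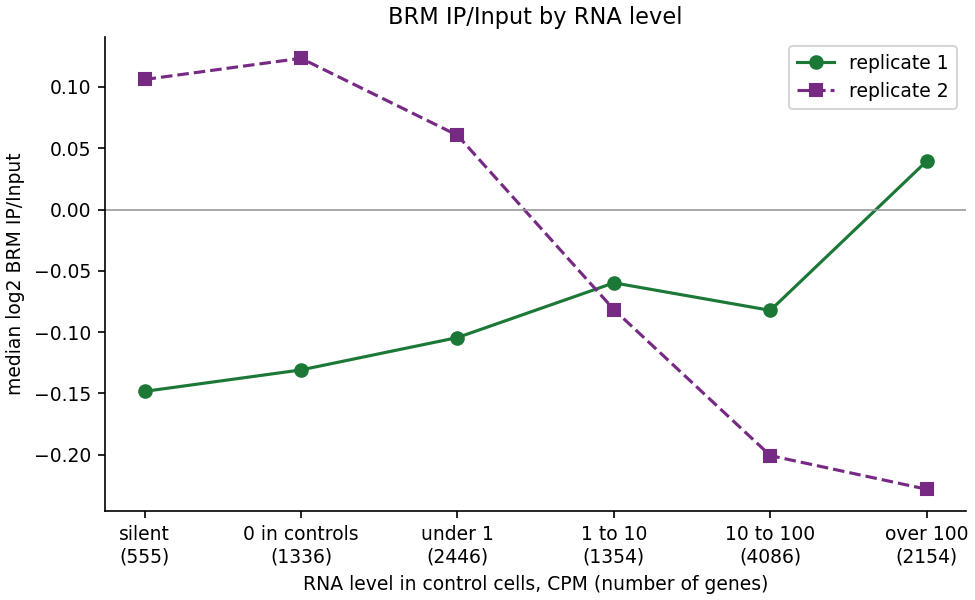
Median log2 IP/Input over genes (vertical axis) by expression class (horizontal axis, CPM in the control cells, number of genes in brackets), with 1 line for each replicate. From low to high expression, replicate 1 runs between −0.15 and 0.04, and replicate 2 between 0.12 and −0.23.

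The silent genes lay apart from active genes along the chromosomes. Their median distance to the nearest active gene was 10599 bases, against 165 bases between an active gene and the nearest other active gene, and 50.9% of the silent genes but 5.91% of the active genes were over 10 kb away. An overlap with another annotated gene was found in 37.0% of the silent genes and 54.6% of the active genes, and an overlap with an active gene in 9.63% and 28.0%. The silent genes were also shorter, and these shares were not adjusted for length. They were not taken for genes outside both groups, so that the setting may not be particular to silent genes. The ChIP-seq ratio varied little with this setting. Median log2 IP/Input was −0.11 and 0.03 in the 52 silent genes that overlap an active gene, −0.15 and 0.12 in the 213 others within 10 kb of one, and −0.15 and 0.10 in the 275 genes farther away. The direction of each replicate was therefore found also in the silent genes that are over 10 kb from an active gene. The distance to genes with less RNA was not taken.

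By chromosome arm, 107 silent genes lay on 2L, 108 on 2R, 127 on 3L, 131 on 3R and 67 on X. In the same order, these were 4.43%, 4.03%, 4.80%, 4.05% and 3.36% of all genes tested on the arm. The small chromosome 4 held 0 silent genes among 78 genes, 54 of them active. The silent minus active difference in medians was negative on each of the 5 arms in replicate 1, between −0.12 and −0.07, and positive on each in replicate 2, between 0.22 and 0.38. On the X chromosome the silent genes had a median Input of 1.02 and 1.07, against 1.80 to 1.93 in replicate 1 and 1.86 to 1.97 in replicate 2 on the autosomal arms. The IP signal was lower there as well, with 0.915 and 1.21, and the median log2 ratio on X was −0.15 and 0.16. The lower level on X was thus present in IP and Input alike. Runs of at least 3 neighboring silent genes were found at 6 places and held 19 genes. The longest, with CG15475, CG17472, CG31680 and Sfp38D on 2L, had medians of 0.04 and −0.27. The run with CG42383, CG15873 and Pgam5-2 on 2R had −0.31 and 0.81, and that with Osi6, Osi7 and Osi8 on 3R had −0.23 and 0.45. The genes of a run lie next to each other, so that a run counts as 1 place.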

How the data were processed

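Endogenous BRM ChIP-seq (4 libraries) and RNA-seq (8 libraries) of S2 cells were used. The deposited ChIP-seq values are coverage signal, not counts: the authors aligned the reads with Bowtie and averaged the coverage over each gene and 200 bp on each side with ngs.plot, separately for each replicate. Its scaling is not given in the sources used here, and the methods state an average depth but not that of each library. A counting error of the signal was therefore not computed. The deposited RNA-seq values are raw counts per gene, made by the authors with TopHat2 and HTSeq. How reads of near-identical genes were treated is not given in the sources used here. All columns belonged to these samples.

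The silent genes, families, classes and motifs were chosen with earlier results of these data known. CPM used the library totals. Differences between silent and active genes were fitted by least squares in each replicate, with log10 gene length and GC content as covariates, for 540 silent and 5808 active genes with a position. Replicates, not genes, were the units of the exact sign-flip permutation test. For single genes, limma 3.58.1 (R 4.3.3) was fitted to log2(signal + 0.1) over 13557 genes, with Benjamini-Hochberg adjustment. The scripts were tested on simulated data. The other values came from pandas 2.3.3 and numpy 2.4.6 under Python 3.11.15.

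Named genes were taken from the silent members of the family lists, some of them given only as a range, the 5 protein-coding genes highest and the 5 lowest in the mean ratio among those on the same side of the median of all genes in both replicates, the 5 longest, and 3 active examples. The 10 genes bound in both replicates, genes of runs, genes at the limits of the rule, Orco and mor were named in addition, after their values were seen. Lengths, GC content and sequences came from the Release 6 genome and its Ensembl annotation, while the deposited tables hold no coordinates. The build is BDGP6 in the methods of the study and dm3 in the submitters' processing notes. For 14 silent genes without a symbol, it could not be checked whether they belong to the Cpr or Cyp families. Alternatives were other pseudocounts, Input limits, expression limits, length and GC terms, gene subsets, thresholds, a replicate block, the mean Input as denominator and leaving out each replicate.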

Additional observations from a re-analysis of the deposited data

How the results depend on the processing

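The adjusted difference between silent and active genes was 0.18. Under 18 alternatives that kept both replicates it ran from 0.10 to 0.19, negative in replicate 1 (−0.28 to −0.08) and positive in replicate 2 (0.34 to 0.64) in each of the 18. One of these, the mean Input of both replicates as denominator, was chosen after seeing the data. Leaving out 1 replicate gave −0.11 to 0.46 for the adjusted and −0.14 to 0.33 for the unadjusted difference, the negative value without replicate 2 in both cases. The 4 other alternatives of the unadjusted difference kept its direction. The count of bound silent genes was 144, and became 10 when both replicates had to reach 1.1, 241 when the ratios of each replicate were divided by their median, 49 at a stricter threshold, and 35 to 269 when 1 replicate was left out. It was 153 with summed signal and 133 at an Input minimum of 1.

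For single genes, limma gave 0 adjusted calls among all genes, also with a pseudocount of 0.5 and without an Input minimum, and 6 at an unadjusted p under 0.05. With a replicate block it gave 0 adjusted calls and 346 unadjusted ones (chosen after seeing the data), 16 of them silent genes, 4 higher and 12 lower in the IP. IP and Input of the same number deviated together across all genes (r = 0.69), but 2 pairs give a single value. The labels give a shared experiment or replicate number and do not say more about it. The ratios used this pairing. The fit without the block was kept as chosen and leaves the pairing out, so that its calls are to be read beside those with the block. Of the family medians, that of the neuropeptides (Ilp2 alone) was −0.36 with a pseudocount of 0.5, against −0.43. With 2 replicates, the exact sign-flip test could not fall below 0.5. The tables hold signal without the reads behind it, so that the counting error of a short gene was not computed.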

Other observations

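Of the 35 genes with 0 counts that failed the limit on Input, 23 were histone genes, and 25 had an Input of 0 in both replicates, so that no ratio could be formed for them. Genes of the Stellate family on the X chromosome were also among them, with an Input of 0.039 and 0.047 in Ste12DOR and 0 in both replicates in Ste:CG33238. Others, such as Cyp9b2 with 0.424 and 0.899, lay just under the limit in replicate 1. An Input of 0 says only that the signal is listed at 0, and its cause was not tested.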
